A study of Mus musculus with 4 samples.

Results

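The genes described here are 10 broadly expressed genes with very long loci: Wwox, Fhit, Immp2l, Exoc4, Vps13b, Gphn, Lpp, Ptprk, Magi1 and Dock1. They were chosen by name, as genes of long genomic span that are not specific to cardiomyocytes, and all 10 were found among the 48316 gene names of the deposited expression table. Genes averaging 1 FPKM or more across both groups were compared, 11697 in all, and the 10 genes were all among them with the status OK. FPKM is a fragment count divided by transcript length and library size, so levels can be set side by side between genes.

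RNA was measured in cardiomyocytes, the contractile cells of the heart, released from mouse hearts by Langendorff perfusion. The MHC control group (2 libraries) carried only the MHC genotype. The Rbfox2 OE group (2 libraries) overexpressed RBFOX2, an RNA-binding regulator of splicing whose non-muscle isoform the series title names. All mice were C57BL x FVB and ate doxycycline for 3 days, so the controls received the drug as well. The labels do not spell out the MHC allele, the promoter that drives Rbfox2, or the age and sex of the mice, and they do not say whether libraries came from separate or pooled animals. Each group has a single deposited value per gene, with bounds set by the authors at a level not given in the sources used here. There was therefore no spread between libraries and no test. Ranges in parentheses after an FPKM value are those bounds, and bounds are called separate where those of the groups do not overlap.

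Rbfox2 itself had 14.7 FPKM in control cells and 293 FPKM under overexpression, in the direction of the labels. Of 10 cardiomyocyte markers, 8 had an estimate, and Myh6 and Mb were listed at 0 with the status for loci of too many fragments. The 8 markers summed to 58549 FPKM in control cells and 36784 FPKM under overexpression, lower for all 8, with separate bounds for 5. Markers of other cells went the other way. Summed fibroblast markers were 209 and 498 FPKM (7 of 7 higher), macrophage and leukocyte markers 79.9 and 279 FPKM (6 of 6), endothelial markers 178 and 333 FPKM (7 of 7), and smooth muscle and pericyte markers 140 and 319 FPKM (6 of 6). Red blood cell markers summed to 56.6 and 295 FPKM (5 of 5 higher), and 5 neuronal and glial markers to 1.13 and 2.25 FPKM. The part of these shifts in the results below was not tested, and in bulk RNA fewer cells of a type and less RNA per cell cannot be told apart.

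Very long genes are mostly intron. The polymerase has to cross the whole unit for each transcript, and the splicing machinery then joins exons that lie far apart. Several of these genes, Wwox, Fhit and Immp2l among them, cover or adjoin common fragile sites, stretches of chromosome that break under replication stress. RBFOX proteins recognise the hexamer UGCAUG, mainly in introns beside the exons that they regulate.

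The length of these genes lay almost wholly outside their mature transcripts. Fhit (chromosome 14, 9550092 to 11162035 on GRCm38, minus strand) had a locus of 1612 kb and, in its transcript with the longest coding sequence, a mature length of 1094 nt over 10 exons. Immp2l (chromosome 12, 41024090 to 41955588, plus strand) had a coding sequence of 528 nt in 931 kb, and Wwox (chromosome 8, 114439655 to 115352708, plus strand) had 1245 nt in 913 kb. In these 3 genes the span was 407 to 1473 times the mature length. The other members had longer messages. Vps13b (chromosome 15, 35371546 to 35938246, plus strand) had 62 exons and 13757 nt, and Dock1 (chromosome 7, 134670654 to 135173639, plus strand) had 52 exons and 6807 nt. Lpp (chromosome 16, 24391612 to 24992576, plus strand) had 15459 nt, of which 1842 nt were coding. From 97.4% of the gene, in Lpp, to 99.9%, in Fhit, was left out of the mature transcript. All 10 genes are annotated as protein-coding, and their median locus span was 605 kb, against 31.7 kb over the genes compared. All 10 overlap an annotated gene on the opposite strand, and 9 share their locus in the table with other genes, so that fragments of a neighbour may be counted in them and the reverse. The highest other gene was Cox6c in the locus of Vps13b and Lppos in that of Lpp. In the other shared loci the highest other gene had at most 0.053 FPKM in either group.

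The hexamer, searched as TGCATG on the transcript strand alone, lay in the mature transcript of 8 of the 10 genes and in the coding sequence of 6. Over 11088 expressed genes with a coding transcript the shares were 53.0% and 30.6%. Mature length moves with these counts: the median was 4789 nt in the members and 2924.5 nt in those genes. Per kilobase the members had a median of 0.309 matches, against 0.172 over all. Genes without a match enter these medians as 0, so the comparison is not one at equal length. Fhit had 0.914 matches per kilobase and Immp2l 0.872, each from 1 match in a short message, and Wwox and Magi1 had none. All 5 matches in Lpp lay in its 3′ untranslated region. Windows of 30 coding bases around a match are shown, because RBFOX2 is the protein that was overexpressed, for the members with the lowest ratios (Gphn, Immp2l) and for members near the control level (Ptprk, Dock1). Capitals mark the hexamer. Sequences are those of GENCODE M21 transcripts.
Gphn exon 7: aagtaaaggaggTGCATGatgaacttgaag
Immp2l exon 7: ctctgggactccTGCATGcccatgccacac
Ptprk exon 16: accagagcacccTGCATGcagaagaccccc
Dock1 exon 28: aactttgtggctTGCATGacagccatttta
Dock1 exon 35: acaggaccatcaTGCATGacgaaaacaaag
These windows lie on GRCm38, plus strand, at chr12:78492105-78492134 for Gphn, chr12:41954985-41955014 for Immp2l and chr10:28560094-28560123 for Ptprk. Those of Dock1 lie at chr7:134990525-134990554 and chr7:135108801-135108830. The windows shown come from 2 genes with low ratios and 2 near the control level. Exoc4 and Vps13b, with log2 ratios of -0.70 and -0.73, also had coding matches, which are not shown. Whether matches go with the ratios was not tested. A match describes the letters only, and introns were not searched here.

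Gphn had the lowest ratio of the 10 genes. It encodes gephyrin, the scaffold of glycine and GABA receptors at inhibitory synapses, which also carries out the last steps of molybdenum cofactor synthesis. Gphn (chromosome 12, 78226655 to 78684767, plus strand) measured 13.5 FPKM (9.41 to 17.6) in control cells against 3.79 FPKM (2.52 to 5.06) under overexpression. The control value was 3.57 times the other, and the bounds were separate, with a gap of 4.35 FPKM. The log2 ratio, Rbfox2 OE over control with 1 FPKM added to both, was -1.60, and the bounds farthest apart and nearest gave -2.40 and -0.78. Of the genes compared, 2.77% had a lower log2 ratio. Among 420 genes with an annotated span of 200 to 500 kb, Gphn included, 28.3% were at least 2-fold lower and 24.3% lower with separate bounds. Gphn was also the only member whose locus in the table held no other gene.

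Of the 10 genes, Gphn was the 1 member lower with separate bounds, as were 9.33% of the genes compared. None was higher with separate bounds, against 6.67% of the genes compared. At a 2-fold threshold on the log2 ratio, 2 members (Gphn and Immp2l) were lower, against 10% of all genes, and 0 were higher, against 6.97%. On the plain ratio, with nothing added, 5 members were at least 2-fold lower (Gphn, Immp2l, Fhit, Wwox and Vps13b), against 13.7% of all genes. The last 3 of these had levels under 3 FPKM, where the added 1 FPKM weighs most. The median log2 ratio of the 10 genes was -0.71, against -0.06 over all genes compared.

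**Figure D1:**
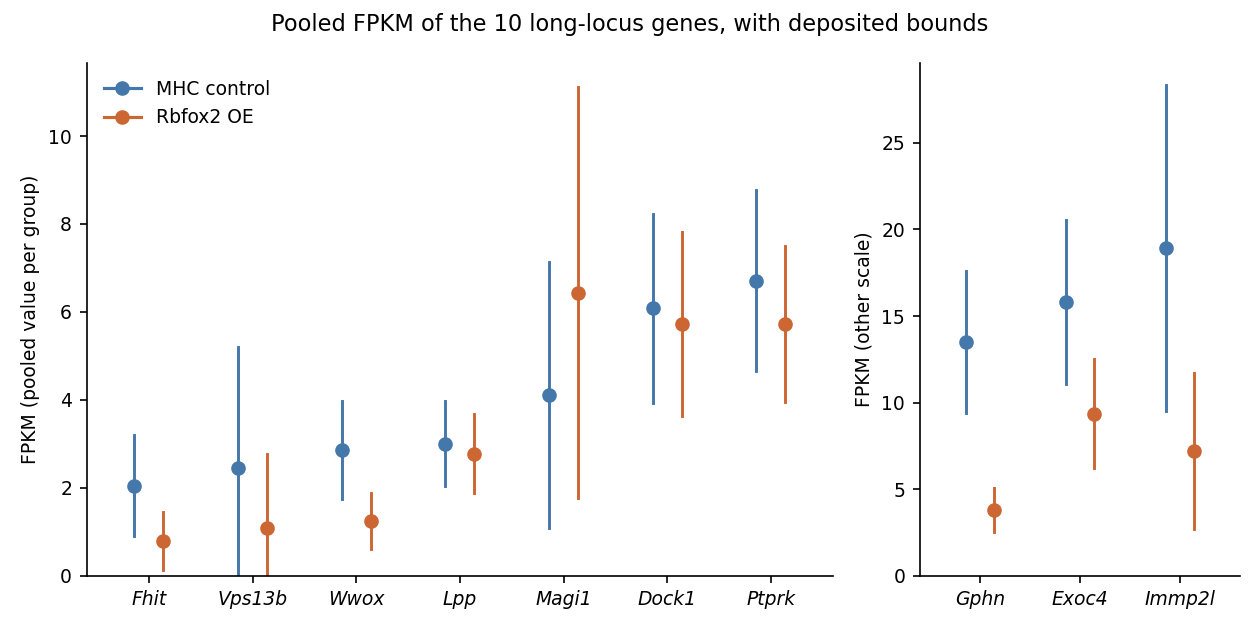
Pooled FPKM (vertical axes, 2 linear scales) of the 10 genes in MHC control (blue) and Rbfox2 OE (orange); points are the deposited values, each from 2 libraries, and lines run between the authors' lower and upper bounds. Gphn, at 13.5 and 3.79 FPKM, is the gene whose lines do not overlap, and Magi1 is the gene whose Rbfox2 OE value is the higher.

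Wwox, Fhit and Immp2l, named above for fragile sites, had the longest loci of the list. Each had a lower value under overexpression with overlapping bounds. Immp2l encodes a catalytic subunit of the mitochondrial inner membrane peptidase, which trims presequences of imported proteins. It measured 18.9 FPKM (9.52 to 28.3) in control cells against 7.20 FPKM (2.67 to 11.7) under overexpression, a log2 ratio of -1.28. Wwox encodes an oxidoreductase with WW domains that is lost in many tumours. Its values were 2.86 FPKM (1.75 to 3.98) and 1.25 FPKM (0.613 to 1.88), so that 0.128 FPKM of the bounds was shared (log2 ratio -0.78). Fhit encodes a hydrolase of diadenosine polyphosphates of the histidine triad family. It was the lowest of the 10 genes in both groups, at 2.05 FPKM (0.894 to 3.20) and 0.790 FPKM (0.133 to 1.45), a log2 ratio of -0.77. With nothing added, the control value was 2.63 times the other for Immp2l, 2.59 times for Fhit and 2.30 times for Wwox.

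Both genes of membrane traffic had lower values with overlapping bounds. Exoc4 (chromosome 6, 33249085 to 33973979, plus strand) encodes the SEC8 subunit of the exocyst, which tethers secretory vesicles to the plasma membrane. It measured 15.8 FPKM (11.1 to 20.5) in control cells against 9.36 FPKM (6.23 to 12.5) under overexpression, a log2 ratio of -0.70. Vps13b encodes a lipid transfer protein of the Golgi apparatus. Its values were 2.45 FPKM (0 to 5.20) and 1.08 FPKM (0 to 2.76), so both lower bounds were 0, and the upper bounds lay 112% and 157% above the values. The table joins Vps13b in a single locus with Cox6c, a respiratory chain gene with 1418 FPKM in control cells and 1169 FPKM under overexpression.

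Of the genes of cell contacts and the cytoskeleton, 3 had values near the control. Lpp encodes a LIM domain protein of focal adhesions, Ptprk a receptor tyrosine phosphatase of cell-cell contacts, and Dock1 an activator of the small GTPase RAC1. Lpp measured 3.00 FPKM (2.03 to 3.96) in control cells against 2.78 FPKM (1.89 to 3.67) under overexpression. Ptprk (chromosome 10, 28074820 to 28597397, plus strand) measured 6.71 FPKM (4.67 to 8.76) against 5.72 FPKM (3.94 to 7.51), and Dock1 6.08 FPKM (3.93 to 8.22) against 5.73 FPKM (3.64 to 7.83). Their log2 ratios were -0.08, -0.20 and -0.07. Rescaling the groups without mitochondrial genes and the 10 most abundant genes put Lpp at 0.03 and Dock1 at 0.05, so the sign of those 2 depends on the scaling. The transcript Lppos, in the Lpp locus, had 3.28 and 3.47 FPKM. The kit was stranded, but the use of strand in counting is not given in the sources used here.

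Magi1 (chromosome 6, 93675455 to 94283917, minus strand), a scaffold of tight junctions with PDZ and WW domains, was the 1 member with a higher value under overexpression. It measured 4.12 FPKM (1.09 to 7.14) in control cells against 6.44 FPKM (1.77 to 11.1), a log2 ratio of 0.54. The bounds overlapped over most of the control range, and the ratios that they allow ran from -1.56 to 2.53 on the log2 scale. In the deposited values the other 9 members lay below the control, as did 53.8% of all genes compared.

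**Figure D2:**
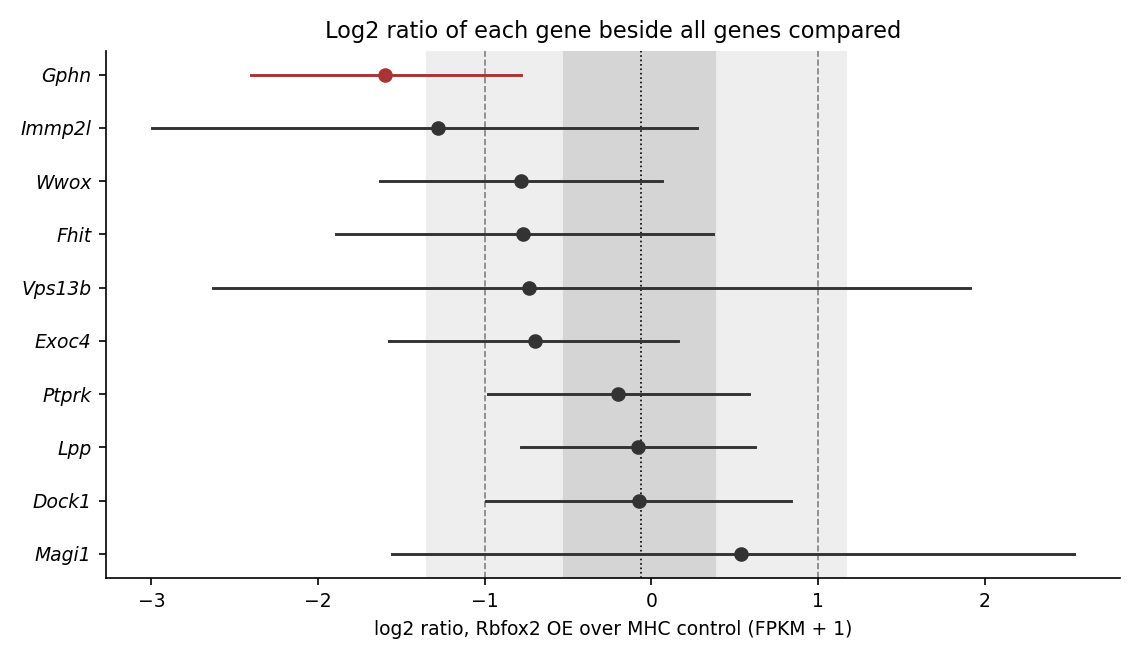
Log2 ratio, Rbfox2 OE over control (horizontal axis, 1 FPKM added) for each of the 10 genes (points), with lines to the ratios from the farthest and nearest bounds; the dark and light bands hold the middle 50% and middle 90% of the 11697 genes compared, the dotted line is their median, and dashed lines mark 2-fold. Gphn (red, -1.60) is the gene whose line stays below 0, and Lpp, Dock1 and Ptprk lie inside the dark band.

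The order of the levels differed between the groups. In control cells Immp2l, Exoc4 and Gphn had 13.5 to 18.9 FPKM and the other 7 genes 2.05 to 6.71 FPKM. Under overexpression Exoc4 and Immp2l led, Magi1 held rank 3, and Gphn held rank 6, below Dock1 and Ptprk. The bounds of Immp2l and Exoc4 overlapped in each group, as did those of Dock1, Ptprk and Magi1. Under overexpression the bounds of Gphn overlapped those of Dock1, Ptprk, Magi1 and Immp2l as well. Those of Exoc4 and Immp2l also overlapped those of Dock1, Ptprk and Magi1, so these neighbours are not ordered beyond their bounds. Wwox, Vps13b and Fhit held ranks 8, 9 and 10 in both, with bounds that overlapped each other. The 4 longest loci, those of Fhit, Immp2l, Wwox and Exoc4 (725 to 1612 kb), had log2 ratios from -1.28 to -0.70. Of the 6 shorter loci, those of Dock1, Ptprk, Lpp and Magi1 had ratios from -0.20 to 0.54, and that of Vps13b had -0.73. The highest ratios that the bounds of the 4 longest allow ran from 0.07 (Wwox) to 0.37 (Fhit). Their ranges overlapped those of Dock1, Ptprk, Lpp, Magi1 and Vps13b. Gphn, with the shortest locus (458 kb), had the lowest ratio of all 10.

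Over all genes compared, the median log2 ratio was lower in longer loci. It was 0.05 in 2176 genes with loci under 10 kb, -0.15 from 100 to 200 kb, -0.30 from 200 to 500 kb, and -0.38 in 217 genes with loci of 500 kb and over. A table locus can join neighbouring genes, so the span of each annotated gene was used as well. By that span the median was 0.04 in 3094 genes under 10 kb, -0.51 in 420 genes of 200 to 500 kb and -0.73 in 80 genes of 500 kb and over, 9 of the members among them. Of those 80 genes, 29 (36.3%) had ratios past 2-fold downward and 1 (1.25%) upward, whereas under 10 kb the shares were 6.72% and 10.1%. Bounds were separate and lower for 22 of the 80 (27.5%).

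The members' median of -0.71 lay close to that of other genes of their length. Without the members, 71 genes of 500 kb and over had a median of -0.73, with 39.4% at least 2-fold lower and 31.0% lower with separate bounds. Of the members in that class, Immp2l alone was at least 2-fold lower, and none had separate bounds. Gphn, at 458 kb, is in the members' median but not in that class. The longest genes also had the lowest median among those with mature transcripts under 2500 nt, as in Wwox, Fhit and Immp2l, with 0.02 under 10 kb and -0.82 in 15 genes of 500 kb and over. Among those of 5000 nt and over, as in Vps13b, Lpp, Magi1 and Dock1, the medians were 0.16 and -0.73 (43 genes). Between these lengths, as in Exoc4, Gphn and Ptprk, the medians were -0.72 from 200 to 500 kb and -0.56 in 21 genes of 500 kb and over. Control levels had medians of 9.30 FPKM under 10 kb and 7.22 FPKM at 500 kb and over. Markers of cardiomyocytes were lower and those of other cells higher in the same comparison, with the sums given above, and their part in this relation was not tested.

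**Figure D3:**
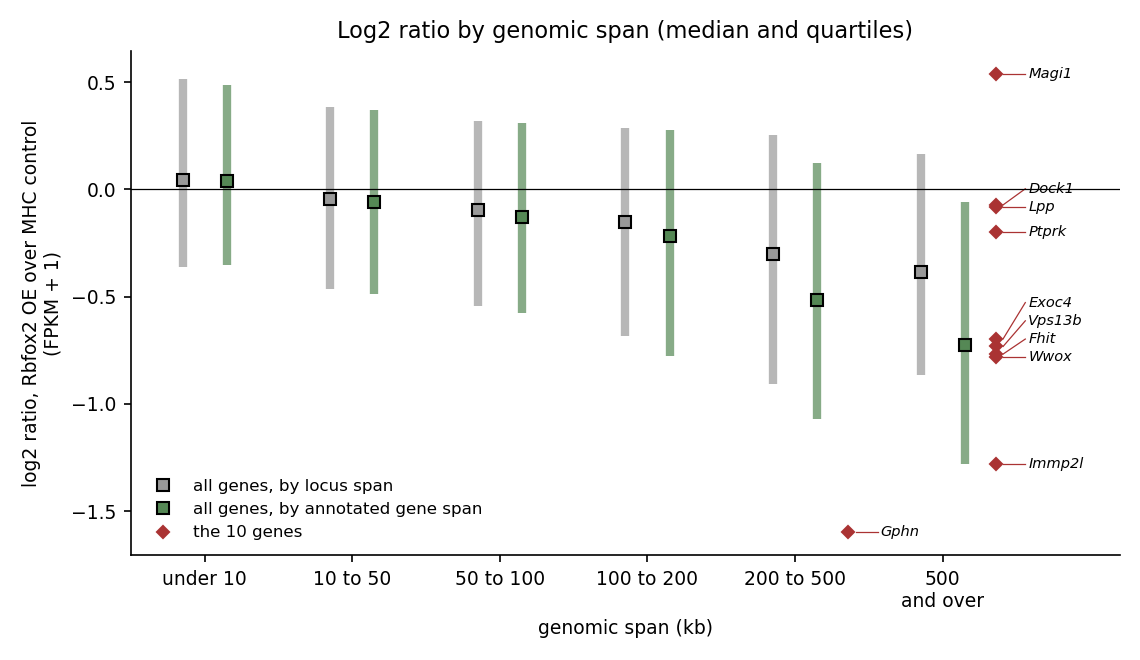
Log2 ratio, Rbfox2 OE over control (vertical axis, 1 FPKM added) by genomic span in kb (horizontal axis, 6 classes) for the genes compared; squares are medians and bars quartiles, by table locus (grey) and by annotated gene (green), and red diamonds are the 10 genes placed by annotated span. The green medians go from 0.04 to -0.73, and the diamonds lie between -1.60 (Gphn) and 0.54 (Magi1).

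Only 5 of the genes compared had a table locus of 500 kb or more that held no other gene, and these went either way. Rbfox1, the paralogue of Rbfox2, had 15.7 FPKM in control cells against 0.300 FPKM, with separate bounds. Smyd3, a lysine methyltransferase, had 3.57 FPKM (1.75 to 5.40) against 0.980 FPKM (0.341 to 1.62). Pde4b, a cyclic AMP phosphodiesterase, was higher, at 12.0 FPKM (7.87 to 16.1) against 25.0 FPKM (17.0 to 32.9).

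Relatives and partners of the members, 40 genes of mostly shorter span, were compared next. Of the 34 that reached the minimum, 6 were lower with separate bounds (Exoc3, Exoc6, Vps13a, Vps13c, Ptprm and Dock5), against 9.33% of all genes compared, and 0 were higher, against 6.67%. Their median log2 ratio was -0.26, beside -0.06 over all genes, and 22 had values below the control, as did 53.8% of all genes. Immp1l, the other catalytic subunit of the peptidase to which Immp2l belongs, has a locus of 60.9 kb. It measured 44.1 FPKM (30.6 to 57.7) in control cells against 37.0 FPKM (25.5 to 48.6) under overexpression. Its log2 ratio was -0.25, against -1.28 for Immp2l, and the difference between these ratios was not tested.

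Of the 8 other exocyst genes, 7 had values below the control (53.8% of all genes), 2 of them with separate bounds (9.33% of all genes), and the median log2 ratio was -0.59. Exoc6 measured 13.9 FPKM against 5.69 FPKM under overexpression and Exoc3 22.1 against 11.8 FPKM, while Exoc5 had 6.15 and 8.93 FPKM with overlapping bounds. All 3 relatives of Vps13b had values below the control (53.8% of all genes). Vps13c measured 6.61 against 1.93 FPKM, a log2 ratio of -1.38, and Vps13a 3.90 against 1.74 FPKM, both with separate bounds. The bounds of Vps13d overlapped, at 45.2 and 17.1 FPKM.

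Relatives of the other members were mixed. Ptprm, a receptor phosphatase closely related to Ptprk with a locus of 688 kb, measured 37.8 FPKM in control cells against 15.8 FPKM under overexpression, a log2 ratio of -1.21 with separate bounds. Dock5, a paralogue of Dock1, had 2.44 and 0.805 FPKM, also with separate bounds, while the other 6 Dock1 relatives compared had overlapping bounds. Dock2, a leukocyte paralogue that missed the minimum, had 0.230 and 1.19 FPKM, with separate bounds in the upward direction. All 4 zyxin family relatives of Lpp had higher values, with log2 ratios from 0.26 to 0.91 and overlapping bounds. Of all genes compared, 53.8% were below the control. For Gphn, the cofactor synthesis genes Mocs1, Mocs2 and Mocs3 had log2 ratios of 0.73, -0.40 and 0.36 with overlapping bounds, beside the -1.60 of Gphn. Glrb, the glycine receptor subunit that gephyrin binds, had 0.0431 and 0.151 FPKM. Of 5 relatives of Fhit in the histidine triad family, 4 had values below the control (53.8% of all genes), none with separate bounds. The MAGI relatives of Magi1 had log2 ratios of -0.31 (Magi2) and 0.45 (Magi3).

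**Figure D4:**
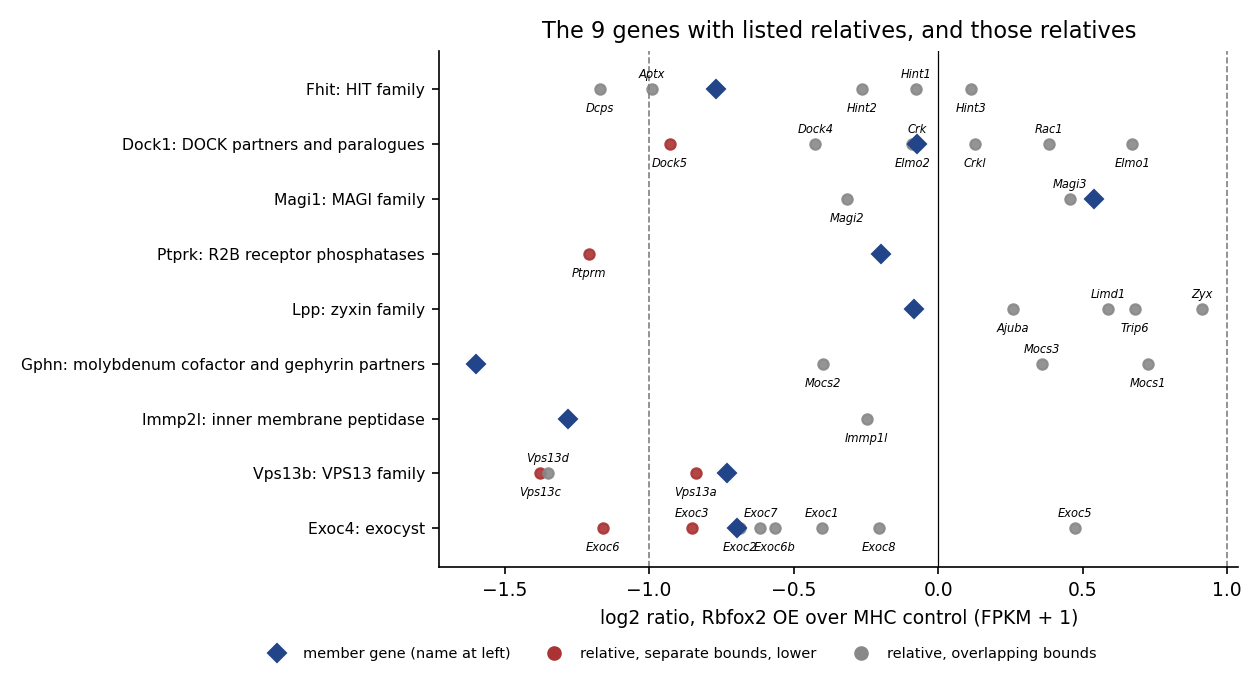
Log2 ratio, Rbfox2 OE over control (horizontal axis, 1 FPKM added) for 9 of the genes (blue diamonds) and for their relatives with a mean of at least 1 FPKM (circles; red where bounds were separate and lower), 1 row per family; dashed lines mark 2-fold. Gphn and Immp2l lie to the left of their relatives, the VPS13 family lies wholly below 0, and the zyxin family lies above 0 except for Lpp.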

How the data were processed

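Per the file headers, the authors deposited Cuffdiff FPKM values, 1 per gene and group of 2 libraries, and the other deposited columns used are the bounds of those values. The submitters' processing notes name STAR 2.4.2a, Cuffdiff 2.2.1, HTSeq, DESeq2, Trimmomatic, Picard 1.119, bcl2fastq 2.17.1.14, GRCm38 and mm10. The annotation, the scaling mode and the level of the bounds are not given in the sources used here. Columns of single libraries numbered 0, and depth in reads is unknown, so no counting interval or floor is given.

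For 110 gene names on several rows the rows were summed. The log2 ratio used a pseudocount of 1 FPKM, which understates changes of low genes, and a minimum mean of 1 FPKM. No p-value was computed. Table starts were moved by 1 base to count from 1. Identifiers of 99.2% of rows were found in GENCODE M21 (GRCm38), and for 99.95% of these the locus overlapped the gene annotated there. Transcript features come from the coding transcript with the longest coding sequence. Upstream sequences are from RefSeq (GRCm38.p6).

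All members are named. Relatives are named where bounds were separate, with Immp1l, and the long single-gene loci where bounds were separate. Exoc5, Vps13d, Glrb, Dock2, the Mocs and MAGI genes, Cox6c and Lppos were named after their values were seen. The members and lists were chosen with earlier results of these data known. Calculations used Python 3.11.15 and pandas 2.3.3 and were tested on simulated data. Alternatives covered the pseudocount, scaling, minimum, threshold, status and span.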

Additional observations from a re-analysis of the deposited data

How the results depend on the processing

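No paired analysis was possible because each group has a single pooled column, and for the same reason limma and leaving out each replicate were not run. How far the libraries of a group differ is unknown, and the unknown depth limits low genes most. The members' median of -0.71 was -0.93 with a pseudocount of 0.1, -0.29 with 5, -0.60 on rescaling without mitochondrial and top genes, -0.45 with a minimum mean of 5 FPKM (6 genes) and -0.57 as a mean. Members at least 2-fold lower numbered 5 with a pseudocount of 0.1, against 13.3% of all genes, and 1 with 5, against 4.78%. Members below the control numbered 7 of 10 on that rescaling, where the median of all genes was 0.06. Gphn kept separate bounds under both rescalings, with log2 ratios of -1.54 and -1.47, and had -1.81 with a pseudocount of 0.1 and -1.07 with 5. The rescaling moved the median of all genes from -0.06 to 0.06, and lower genes among those past 2-fold from 59.0% to 47.1%. The 1987 genes at least 2-fold apart became 863 with a pseudocount of 5 and 4520 at 1.5-fold. The median of -0.38 in loci of 500 kb and over was -0.25 with a pseudocount of 5, -0.25 rescaled, -0.0054 with no minimum, where genes near 0 enter, -0.52 with a minimum of 5 FPKM, and -0.014 in loci holding 1 gene (5 genes). By annotated span it was -0.73, and, in settings chosen after seeing the data, -0.82 for mature transcripts under 2500 nt, -0.56 for 2500 to 5000 nt (21 genes) and -0.73 for 5000 nt and over. Medians went down from each span class to the next in 10 of the 12 settings, other than in loci holding 1 gene and for mature transcripts of 2500 to 5000 nt. For the other shifts the cause was not tested.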

Other observations

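The table of RefSeq upstream sequences held 8 of the 10 genes, with 11 starts; Wwox and Vps13b had no entry. A ratio of observed to expected CG pairs of at least 0.6 over the 250 bases before the start was found at 6 of the 11, against 34.0% of the 32851 starts in the table. Those starts were not limited to genes expressed here, as the members were, so the shares come from unlike sets. Ptprk (79.2% G or C, 38 CG pairs), Gphn (77.2%, 34 pairs), Dock1 (71.6%, 29 pairs) and Immp2l (66.0%, 24 pairs) had the most CG pairs, while both Magi1 starts had 5. Both Magi1 starts lie inside the annotated gene, whose own annotated start had no entry. The second starts of Fhit and Lpp also lie inside those genes. So do the 250 bases before the Gphn start (78226405 to 78226654), since the annotated gene begins at 78226379. The bases before the starts of Exoc4 and Dock1 lie partly inside the annotated genes. The letters TATAAA, on either strand, were found at 0 of the 11 starts and at 12.4% of all, expressed or not. Among the genes with the most CG pairs, Gphn and Immp2l stood lower and Ptprk and Dock1 were near the control level. Exoc4, with a log2 ratio of -0.70, had a start with a ratio of 0.53, below 0.6. Whether CG content goes with the ratios was not tested.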
